A study of Mus musculus with 6 samples.

Results

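The 10 genes described here encode regulators that shape epithelial cells: Grhl1, Grhl2, Grhl3 and Tfcp2l1 of the grainyhead and CP2 family, the splicing factors Esrp1 and Esrp2, the zinc-finger factors Ovol1 and Klf5, and the Ets factors Elf3 and Ehf. Membership goes by gene symbol, and the genes were read by 14 of the 55681 probes of a 1-color mouse expression array, which represents 34741 genes. Livers of male C3H/HeN mice aged 74 to 75 weeks were compared in 2 groups, 3 normal livers and 3 liver tumors that arose without treatment. According to the methods, the mice were F2 animals of an untreated control group on a standard diet, and all 3 tumors carried a Ha-ras mutation. The samples were whole tissue, so fewer cells of a type and less RNA per cell cannot be told apart. The sources used here do not say whether any tumor and normal liver came from the same mouse, and p-values measure the spread between these 6 samples. All normal livers were on one slide and all tumors on the other, and differences between slides cannot be told apart from those between tissues.

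Grainyhead proteins bind DNA as dimers and are known for holding epithelial barriers and junctions together in skin and other linings, while Tfcp2l1, a CP2 factor, is known for roles in kidney ducts and in stem cells. Esrp1 and Esrp2 bind RNA and keep transcripts such as those of Fgfr2, Cd44 and Ctnnd1 in their epithelial splice forms, and Esrp2 is known as the main Esrp protein of adult hepatocytes. Ovol1, Elf3, Ehf and Klf5 are transcription factors of surface and glandular epithelia.

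Expression values are given on a linear scale as the processed signal of a probe divided by the 75th percentile of all spots on its array, and differences are tested within a probe only, since a level also depends on the probe. The scanner software flags whether a spot is well above background, and the lowest value with this flag was between 0.0905 and 0.125 on the 6 arrays. Of the 10 genes, 4 were well above background on all 6 arrays (Grhl1, Tfcp2l1, Esrp1 and Esrp2), against 47.4% of all genes. The other 6 genes (Grhl2, Grhl3, Ovol1, Elf3, Ehf and Klf5) did not pass on all 3 arrays of either group and were not tested. Among the 4 tested genes, Grhl1 and Tfcp2l1 were higher and Esrp1 and Esrp2 lower in tumors at an adjusted p under 0.05 (limma, Benjamini-Hochberg over all 24901 tested probes, of which 33.1% passed), and the groups of all 4 did not overlap. Over all 18545 genes tested, 34.1% passed this threshold (13.1% higher and 21.0% lower in tumors), and in 51.8% the groups did not overlap (18.3% higher and 33.5% lower in tumors), so such a difference was common on these arrays. The median log2 difference was -0.13 over all genes tested and -0.25 over all 34741 genes without the background filter, where values below the detection limit have no order. Grhl1 had been shortlisted by the study by altered DNA methylation near its start site, its expression on these same arrays and a literature search. Its difference is therefore given as a description.

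**Figure D1:**
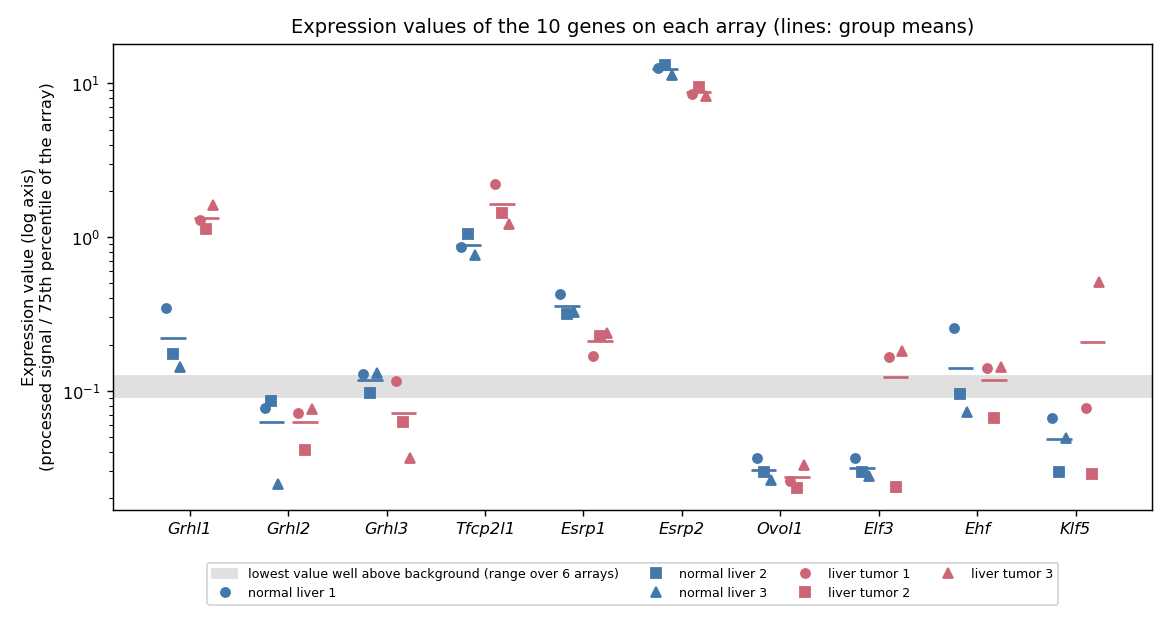
Expression value of each of the 10 genes (x axis) on each of the 6 arrays (y axis, log scale, processed signal over the 75th percentile of the array); lines are group means of 3 arrays and the gray band spans the lowest values well above background, 0.0905 to 0.125. Grhl1 and Tfcp2l1 sit higher in all 3 tumors and Esrp1 and Esrp2 lower, while most points of the other genes lie in or under the band; heights are comparable within a gene only.

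Grhl1 showed the largest difference of the 4 tested members. Its only probe lies at chr12:25302095-25302154 (mm9, + strand) and starts at base 2938 of its transcript. The first 30 bases of this probe and of the 4 other tested member probes show which stretch of each transcript was read:
Grhl1: gaagtatgtgaacaaaatagctggttttct
Tfcp2l1, brighter probe: gtacctgaaataaagcatattttgcacttg
Tfcp2l1, second probe: gtctaaactggagagccaaagatggcacac
Esrp1: ctgtgcattcccaatcttctgtctccctgt
Esrp2: atggtgtgacagccagaaaaccttccatct
The expression value of Grhl1 was 0.348, 0.173 and 0.142 in normal livers 1 to 3 and 1.29, 1.12 and 1.61 in tumors 1 to 3. The lowest tumor was thus above the highest normal liver, and normal liver 1 stood above the other 2 normal livers. The means were 0.221 ± 0.111 and 1.34 ± 0.245 (SD, n = 3 each), a ratio of 6.06. The fitted difference of the mean log2 values was 2.69 (SE 0.34), or 6.47-fold, and the folds of tested genes below, other than those given as "at least", are fitted in this way, so they can differ from the ratio of the printed means. The difference kept its direction under all 19 alternatives to the processing, at log2 values of 1.49 to 3.08. The smallest value, 1.49, came from normexp background correction, which adds an offset of 50 intensity units, and the largest from leaving out normal liver 1.

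The local background around the spots differed between the groups, with medians of 42, 43 and 45 intensity units on the normal arrays and 23, 22.5 and 22 on the tumor arrays. Its part in the results was not tested.

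Grhl2 and Grhl3, the other grainyhead genes, stayed near or under the detection limit. Both Grhl2 probes were well above background on none of the 6 arrays, and the brighter one read 0.0771, 0.0857 and 0.0247 in normal livers and 0.0716, 0.0414 and 0.0759 in tumors. Grhl3, known from skin barrier formation, passed on 1 array, normal liver 3. Its values were 0.128, 0.0965 and 0.130 in normal livers and 0.117, 0.0631 and 0.0367 in tumors, and the groups overlapped. No fold is given, since 2 of the 3 normal livers were also below the flag.

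Tfcp2l1 was read by 2 probes, at chr1:120581646-120581705 and chr1:120577637-120577696 (mm9, + strand). The brighter probe gave 0.866, 1.04 and 0.764 in normal livers and 2.23, 1.44 and 1.22 in tumors. All tumors were above all normal livers, and tumor 1 was well above the other 2 tumors. The means were 0.890 ± 0.140 and 1.63 ± 0.529 (SD, n = 3 each), with a fitted difference of 1.79-fold (log2 0.84, SE 0.24, limma adjusted p = 0.0410). The second probe gave 0.682, 0.960 and 0.868 in normal livers and 1.85, 1.06 and 0.983 in tumors. Here too the groups did not overlap, but tumors 2 and 3 lay close to normal liver 2, and the log2 difference of 0.58 (SE 0.27) did not pass the test (limma adjusted p = 0.142). It lay between 0.30 (without tumor 1) and 0.75 (without tumor 3) with 1 array left out, and passed in none of these fits. The call of the brighter probe was lost on leaving out normal liver 1 (adjusted p = 0.101), normal liver 2 (0.0638), normal liver 3 (0.114), tumor 1 (0.0589) or tumor 2 (0.0758), without the filter (0.115) and as the mean of both probes (0.0678), and adjusted p ranged from 0.0236 to 0.271 over its alternatives.

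Tfcp2 and Ubp1, the CP2 relatives of Tfcp2l1, are broadly expressed transcription factors and did not rise. Ubp1 fell 1.51-fold, from 0.641 ± 0.0683 to 0.425 ± 0.0577 (SD, n = 3 each; log2 -0.60, SE 0.15, limma adjusted p = 0.0243). Its call was lost without normal liver 2, normal liver 3, tumor 1 or tumor 3, with adjusted p between 0.0333 and 0.0824 over the 6 arrays left out in turn, and also with spike-in scaling (log2 -0.46, adjusted p = 0.262) and without the filter (0.0918), and normexp put the difference at -0.33. Tfcp2 gave 0.872 ± 0.141 and 0.715 ± 0.0727 (log2 -0.28, SE 0.16, adjusted p = 0.224), with overlapping groups, and its second probe -0.33.

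Both Esrp genes were lower in tumors. Esrp1 was read at chr4:11260208-11260267 (mm9, - strand), with values of 0.428, 0.314 and 0.328 in normal livers and 0.169, 0.227 and 0.236 in tumors. Every tumor was below every normal liver, with normal liver 1 the highest and tumor 1 the lowest sample. The means were 0.357 ± 0.0619 and 0.211 ± 0.0365 (SD, n = 3 each), 1.69-fold lower in tumors (log2 -0.76, SE 0.19, limma adjusted p = 0.0240). A second Esrp1 probe was well above background on no array. The call was lost without normal liver 1 (adjusted p = 0.0635), normal liver 3 (0.0508) or tumor 1 (0.0506). It was also lost with scaling to spike-in controls (0.0829), with the replicate block and without the filter (0.0813). Under normexp the Esrp1 difference was -0.36, and adjusted p ranged from 0.0185 to 0.251 over the alternatives.

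Esrp2 was read at chr8:108655089-108655148 (mm9, - strand). It gave 12.5, 13.1 and 11.4 in normal livers and 8.53, 9.49 and 8.29 in tumors. The samples of each group lay close together and the groups were apart. The means were 12.4 ± 0.874 and 8.77 ± 0.633 (SD, n = 3 each), 1.41-fold lower in tumors (log2 -0.49, SE 0.12, limma adjusted p = 0.0201). The call was lost without normal liver 1 (adjusted p = 0.0567), normal liver 2 (0.0756), tumor 1 (0.0522) or tumor 3 (0.0524), with quantile normalization (0.0509), with scaling to spike-in controls (0.356) and without the filter (0.0933), and adjusted p ranged from 0.00845 to 0.356 over its alternatives. Spike-in scaling put the median of all genes at 0.00 in place of -0.13. Relative to the median of all genes, Esrp2 was at -0.37, Esrp1 at -0.63, Tfcp2l1 at 0.97 and Grhl1 at 2.82.

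**Figure D2:**
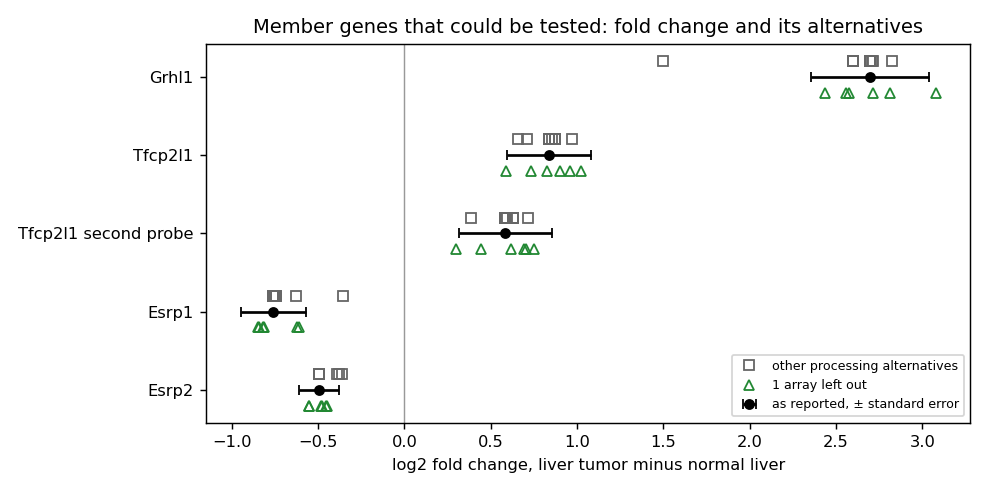
Log2 fold change of tumor minus normal liver (x axis) for the 5 tested probes of the 4 tested member genes (y axis); black points are the reported values with the standard error, squares the other processing alternatives and triangles the 6 fits with 1 array left out. Grhl1 spans 1.49 to 3.08, and no alternative moves any probe across 0.

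Among 8 other splicing regulators on the array, 1 rose and 1 fell. Rbfox2, a regulator of muscle, neuronal and mesenchymal exons, rose from 2.07 ± 0.215 to 4.27 ± 0.723 (SD, n = 3 each; log2 1.03, SE 0.16, limma adjusted p = 0.00521), and a second probe gave 1.28. Rbm47, known as a cofactor of cytidine-to-uridine RNA editing, fell from 15.3 ± 2.30 to 9.82 ± 0.511 (log2 -0.63, SE 0.14, adjusted p = 0.0170). Its call was lost with spike-in scaling (log2 -0.50, adjusted p = 0.145), without the filter (0.0710) and without normal liver 2 or tumor 2 (up to 0.0562), and a second probe gave -0.65. The median over the 8 genes was -0.12, close to the -0.13 of all genes.

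Of 7 genes whose transcripts the Esrp proteins are known to splice, 6 were tested, 2 were higher and none was lower in tumors, with a median log2 difference of 0.03 (-0.09 over all 7 without the filter). Fgfr2, a fibroblast growth factor receptor, rose from 0.820 ± 0.0831 to 1.47 ± 0.197 (log2 0.84, SE 0.14, limma adjusted p = 0.00750), and its second probe gave 1.38. Ctnnd1, which encodes p120 catenin, rose from 20.9 ± 1.78 to 27.8 ± 2.20 (log2 0.41, SE 0.12, adjusted p = 0.0445), a call that was lost on leaving out any 1 of the 6 arrays (adjusted p 0.0598 to 0.115), with spike-in scaling (0.136), with the replicate block (0.0938) and without the filter (0.158). These probes read the gene and not its splice forms, which were not analysed here. Enah, the seventh gene, was well above background on no array.

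Ovol1, a repressor of mesenchymal genes in skin and other epithelia, was well above background on no array. Its values were 0.0363, 0.0297 and 0.0262 in normal livers and 0.0261, 0.0231 and 0.0329 in tumors. Its relative Ovol2 was detected on every array, at 10.4 ± 1.11 in normal livers and 12.6 ± 0.370 in tumors (log2 0.28, SE 0.12, limma adjusted p = 0.111). The Ovol2 groups did not overlap, but the difference did not pass the test. Under normexp it passed (log2 0.35, limma adjusted p = 0.0258).

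The Ets factors Elf3 and Ehf are known from gut, lung and glandular epithelia. Elf3 was well above background in tumors 1 and 3 and in no normal liver, with values of 0.167, 0.0237 and 0.181 in tumors and 0.0366, 0.0298 and 0.0277 in normal livers. Tumor 2 was as dim as the normal livers, and no fold is given, since the mean of the log2 values of the tumors lay below that of the detection limits of the normal arrays. The brighter Ehf probe passed in normal liver 1 and tumors 1 and 3, at 0.255, 0.0958 and 0.0732 in normal livers and 0.141, 0.0661 and 0.144 in tumors, and the groups overlapped. A second Ehf probe passed on no array.

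Of 5 further Elf and Spdef genes, Spdef, a factor of goblet and other secretory cells, rose in tumors. It read 0.267, 0.102 and 0.173 in normal livers, where it passed the background flag in 2 of 3, and 0.513, 0.656 and 0.389 in tumors. The groups did not overlap and the log2 difference was 1.60 (SE 0.37, limma adjusted p = 0.0194), a call lost without normal liver 3 or tumor 2 (adjusted p up to 0.0579) and without the filter (0.0585), and normexp put the difference at 0.58. Over the 3 tested genes the median was 0.01, and over all 5 without the filter -0.17. The brighter Elf1 probe (log2 -0.18, SE 0.12, adjusted p = 0.303) and Elf2 (log2 0.01, SE 0.13, adjusted p = 0.947) had overlapping groups. A second Elf1 probe was lower in tumors without overlap, at 0.369 ± 0.0282 and 0.276 ± 0.0310 (SD, n = 3 each; log2 -0.42, SE 0.13, limma adjusted p = 0.0474, and 0.160 without the filter), so the call for Elf1 differed between its probes. Elf4 and Elf5 were well above background on no array.

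Klf5, a growth-promoting factor of gut crypts and basal epithelia, passed in 1 sample only, tumor 3. It read 0.0778, 0.0287 and 0.513 in tumors and 0.0666, 0.0295 and 0.0496 in normal livers. The other 5 samples were below the detection limit, so the level rests on tumor 3, and no fold is given.

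Other Krüppel-like genes were better measured: 12 of 16 were tested, 2 rose, 2 fell and 8 did not pass, with a median log2 difference of 0.39. Over all 16 without the filter the median was -0.18. Klf6, an early-response factor, rose from 3.33 ± 0.448 to 7.99 ± 1.53 (SD, n = 3 each; log2 1.26, SE 0.18, limma adjusted p = 0.00462). Klf4, a factor of differentiating epithelia, read 0.281, 0.246 and 0.363 in normal livers and 1.21, 0.937 and 0.515 in tumors (log2 1.51, SE 0.33, adjusted p = 0.0157). Tumor 3 was closest to the normal livers, and the call was lost without normal liver 1 or normal liver 2 (adjusted p up to 0.0555) and without the filter (0.0502), while normexp put the difference at 0.82. Klf1, the erythroid factor, fell from 1.24 ± 0.0778 to 0.385 ± 0.154 (log2 -1.78, SE 0.32, adjusted p = 0.00858; -1.08 under normexp). Klf2, a factor of endothelial cells, fell from 2.44 ± 0.227 to 1.64 ± 0.0971 (log2 -0.57, SE 0.12, adjusted p = 0.0143), a call lost with spike-in scaling (log2 -0.44, adjusted p = 0.201) and without the filter (0.0685). With spike-in scaling, 3 genes of this list were called higher and 1 lower.

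**Figure D3:**
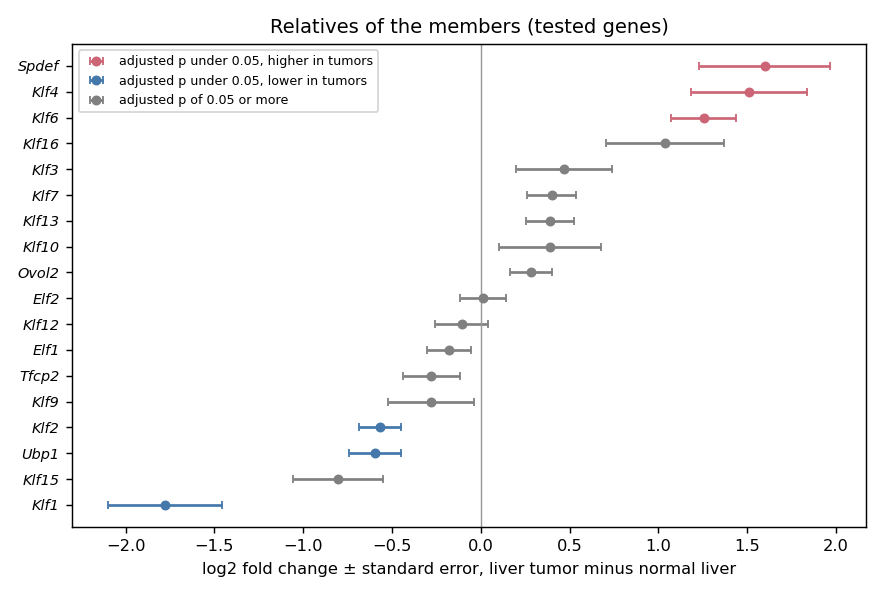
Log2 fold change of tumor minus normal liver (x axis, bars are standard errors) for the tested relatives of the members among the CP2, Ovol, Elf, Spdef and Klf genes (y axis). Spdef, Klf4 and Klf6 are called higher, and Klf2, Ubp1 and Klf1 lower.

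Of 11 other epithelial transcription factors, 5 were tested, with a median log2 difference of -0.22 (-0.46 over all 11 without the filter). Trp63, the p63 factor of stratified epithelia, rose and read 5.24, 5.68 and 7.63 in normal livers and 20.5, 14.4 and 13.9 in tumors (log2 1.39, SE 0.21, limma adjusted p = 0.00528). This rests on 1 of 4 Trp63 probes, since the other 3 were well above background on no array. Sox9, a factor of bile duct cells, and Foxa1 were tested and did not pass, and Tfap2a, Tfap2b, Tfap2c, Pitx1 and Cdx2 were well above background on no array.

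Genes of epithelial junctions and polarity, among them the known grainyhead target Cdh1, were mostly higher in tumors among those that moved: 21 of 29 were tested, 9 rose, 1 fell and 11 did not pass, with a median log2 difference of 0.46 against -0.13 over all genes tested. Over all 29 without the filter the median was 0.16, against -0.25 over all genes. Cdh1, which encodes E-cadherin, read 2.63, 0.895 and 1.77 in normal livers and 14.2, 13.6 and 17.2 in tumors. The difference was 9.26-fold (log2 3.21, SE 0.38, limma adjusted p = 0.00227), with every tumor far above every normal liver. Prss8, a membrane-bound serine protease, rose from 0.435 ± 0.101 to 2.09 ± 0.402 (SD, n = 3 each; log2 2.27, SE 0.23, adjusted p = 0.00139), and its second probe gave 2.73.

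Ddr1, a collagen receptor kinase, was well above background in all 3 tumors (1.30, 0.678 and 1.01) and in no normal liver, so that it passed the filter through the tumors alone. It was at least 8.48-fold higher in tumors on the scaled processed signals, while under normexp the log2 difference was 1.53. Its call in the count of the list belongs to the fitted value, which uses normal livers below background, and not to this bound. The probes of Cldn7, a claudin of tight junctions, disagreed. The brighter one read 0.631, 0.663 and 0.487 in normal livers and 5.07, 1.03 and 10.8 in tumors (log2 2.70, SE 0.80, limma adjusted p = 0.0419). The other was at least 1.72-fold lower in tumors and was also called, passing through the normal livers alone. The count of the list takes Cldn7 as higher by its brighter probe only. The call of the brighter probe was lost on leaving out any 1 array but tumor 2 (adjusted p up to 0.108), with the replicate block (0.0582) and without the filter (0.105).

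F11r, Marveld3 and Marveld2, all of tight junctions, also rose, at log2 differences of 1.47, 1.11 and 1.01 (limma adjusted p = 0.00169, 0.0117 and 0.0126), and kept their calls under every alternative fitted with limma, with Marveld3 at 0.71 under normexp. Cgn and Cldn3, also of tight junctions, passed more narrowly, at 0.55 (SE 0.15, adjusted p = 0.0303) and 0.46 (SE 0.11, adjusted p = 0.0254). Cgn lost its call with spike-in scaling (adjusted p = 0.0643), without the filter (0.109), with the replicate block (0.0539) and on leaving out any 1 array (up to 0.0890). Cldn3 lost its call with spike-in scaling (0.0876), without the filter (0.112), with the replicate block (0.0615) and on leaving out any 1 array but tumor 2 (up to 0.0698). Marveld2 had been shortlisted by the study, in part from these arrays. The only gene of the list called lower was the plaque gene Pkp3 (log2 -0.41, SE 0.11, adjusted p = 0.0303), and its call was lost with spike-in scaling (0.460), quantile normalization (0.0871), no filter (0.131), the replicate block (0.0711) and any 1 array but normal liver 3 left out (up to 0.0862). Epcam, Cldn4, Jup and Spint1 were too dim to be tested, and Cdh3, Cldn6, Rab25 and Ap1m2 were well above background on no array. With 1 array left out, 6 to 8 genes of the list were called higher and 0 or 1 lower, and with spike-in scaling or the replicate block 7 and 0.

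**Figure D4:**
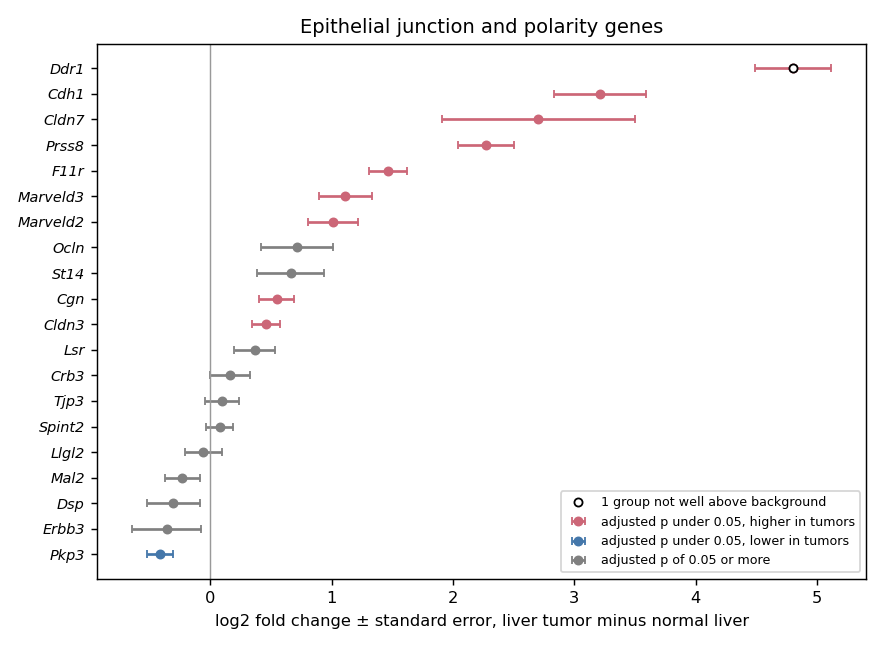
Log2 fold change of tumor minus normal liver (x axis, bars are standard errors) for tested genes of epithelial junctions and polarity (y axis), colored by whether the adjusted p was under 0.05. Cdh1 is at 3.21, and the open circle marks Ddr1, whose normal livers were below background, so that its point is the fitted value and not the bound of at least 8.48-fold.

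Among 13 genes of mesenchymal transition, 9 were tested, none rose and 2 fell, with a median log2 difference of 0.26, but -0.29 over all 13 without the filter. With 1 array left out, 0 to 2 genes of the list were called higher and 2 or 3 lower. The replicate block gave 1 higher and 2 lower. Zeb2, a repressor of Cdh1, fell from 0.852 ± 0.0700 to 0.485 ± 0.0767 (log2 -0.82, SE 0.15, limma adjusted p = 0.00873), but with spike-in scaling no gene of the list was called lower and 1 was called higher. Cdh11, a cadherin of mesenchymal cells, fell from 0.251 ± 0.0128 to 0.150 ± 0.0205 (log2 -0.75, SE 0.14, adjusted p = 0.00895), a call lost under normexp (log2 -0.24, adjusted p = 0.146) and with spike-in scaling (0.0690). Vim was at 0.15 (SE 0.13) on the log2 scale.

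By the distance between log2 profiles over the 6 arrays, each taken relative to its mean in the normal livers, the genes most like Grhl1 among 16481 genes were Unc13b (distance 0.64), S100a11 (0.68), Lss (0.69), Arhgef25 (0.78) and Dhrs9 (0.79). Unc13b, which primes vesicles for release, read 0.487, 0.327 and 0.359 in normal livers and 2.64, 1.93 and 2.78 in tumors. As for Grhl1, normal liver 1 was the highest normal liver and tumor 2 the lowest tumor. S100a11 encodes a calcium-binding protein, Lss lanosterol synthase of cholesterol synthesis, Arhgef25 a guanine nucleotide exchange factor, and Dhrs9 a retinol dehydrogenase. Lss had also been shortlisted by the study, in part from these arrays.

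Sequence upstream of the start site was at hand for 4 of the 10 genes, with 5 starts in all (RefSeq, GRCm38.p6). It is shown for both starts of Grhl1 and the start of Tfcp2l1, the members that were higher in tumors, and for Elf3. Elf3 alone held the 6 grainyhead letters. Each runs over the 250 bases before the start, 5′ to 3′ on the gene's strand, and capitals mark a match to a word searched on both strands:
Grhl1, chr12:24572037-24572286 (+ strand): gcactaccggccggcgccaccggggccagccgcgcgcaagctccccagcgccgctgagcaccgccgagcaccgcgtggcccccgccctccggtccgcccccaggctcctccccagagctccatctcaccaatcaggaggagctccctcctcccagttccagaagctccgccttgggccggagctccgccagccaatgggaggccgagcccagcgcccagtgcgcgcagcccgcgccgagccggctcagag
Grhl1, chr12:24580469-24580718 (+ strand): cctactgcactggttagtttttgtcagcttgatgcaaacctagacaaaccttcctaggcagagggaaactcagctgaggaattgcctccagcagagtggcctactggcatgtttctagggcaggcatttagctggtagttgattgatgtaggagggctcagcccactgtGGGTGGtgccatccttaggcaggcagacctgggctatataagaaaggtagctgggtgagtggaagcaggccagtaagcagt
Tfcp2l1, chr1:118627695-118627944 (+ strand): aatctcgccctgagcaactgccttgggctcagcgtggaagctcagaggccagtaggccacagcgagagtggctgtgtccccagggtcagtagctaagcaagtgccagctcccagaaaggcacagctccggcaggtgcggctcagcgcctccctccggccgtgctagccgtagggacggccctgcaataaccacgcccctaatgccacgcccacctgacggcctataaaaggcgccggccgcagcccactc
Elf3, chr1:135258473-135258722 (- strand): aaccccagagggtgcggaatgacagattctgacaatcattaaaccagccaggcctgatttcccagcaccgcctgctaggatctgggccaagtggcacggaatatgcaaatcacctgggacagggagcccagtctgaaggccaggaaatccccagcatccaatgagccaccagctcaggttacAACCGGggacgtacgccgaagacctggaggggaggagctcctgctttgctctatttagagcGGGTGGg
The grainyhead site was searched as AACCGGTT and by 6 of its letters, CCGGTT, which the full site contains. The Ets word was CCGGAA. The Klf word was CCACCC. Of 32851 starts with such a window, 0.116% held the full grainyhead site, 5.62% the 6 letters, 12.03% the Ets word and 28.1% the Klf word. No member window held the full grainyhead site or the Ets word. Elf3 held the 6 grainyhead letters at -68 and the Klf word at -7, both on the other strand, counted to the first base of the match, with -1 the base before the start. The second Grhl1 start held the Klf word at -81, on the other strand, and Grhl3 held it at -118 and -77. The first Grhl1 start and Tfcp2l1 held none of these words. A match of this kind is a description and not a binding site. A start here need not be the first base of the gene. The annotated Grhl1 gene begins at 24572232 and Tfcp2l1 at 118627923, so their windows lie partly or, for the second Grhl1 start, wholly inside the gene.

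Markers of other cell types were read on the same arrays, each list summed over the probes that represent its genes. In such a sum a single bright probe can carry most of the total, so the brightest is named as a description. Hepatocyte markers were bright on every array: all 10 hepatocyte markers were tested, and their sum was 8113, 8030 and 7572 in normal livers and 7850, 7830 and 7551 in tumors. Alb, the brightest, was at -0.06 (SE 0.13) and Hnf4a at 0.16 (SE 0.14) on the log2 scale. Apoa1 rose (0.90), Cps1 and Tat fell (-1.48 and -1.43), and the median was -0.10.

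Of 10 cholangiocyte markers, 7 were tested, none passed, and the median was -0.22. Their sum was 3.099, 3.81 and 3.04 in normal livers and 2.62, 2.58 and 2.81 in tumors. Spp1 was the brightest and Muc1 was well above background on no array, while some markers, Sox9 and Epcam among them, also stand in lists above. The part of cholangiocytes in the values of the members was not tested.

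Markers of squamous epithelium summed to 13.3, 13.8 and 14.9 in normal livers and 34.7, 26.5 and 27.6 in tumors, with every tumor above every normal liver. Of 16 markers, 8 were tested, 4 rose and 2 fell, with a median of 0.70, but -0.11 over all 16 without the filter. Trp63 was the brightest, with means of 6.19 in normal livers and 16.2 in tumors, so its probe carried much of the difference in the sum. The other Trp63 probes were well above background on no array. Krt5 was at least 5.49-fold higher on the scaled processed signals, but under normexp the log2 difference was 1.17 and the call was lost (limma adjusted p = 0.0527). It passed through the tumors alone, with 1.82 in tumor 2 against 0.411 and 0.324 in tumors 1 and 3, and its second probe was well above background on no array. Sprr1a rose by 2.68 (SE 0.36) on the log2 scale. Krt13 was at 0.79 (SE 0.22, limma adjusted p = 0.0371), a call lost under normexp (log2 0.36, adjusted p = 0.0985), without the filter (0.109), with the replicate block (0.0708) and without any 1 array but normal liver 1 (up to 0.0968). Lor was at least 4.14-fold lower in tumors, passed through the normal livers alone and was at -0.87 under normexp. The calls of Krt5 and Lor in the counts belong to fitted values, which use a group below background, and not to these bounds. Krt14, Krt1, Ivl, Sprr1b, Sprr3 and Cnfn were well above background on no array. Krt10 was lower (log2 -0.65, SE 0.14, adjusted p = 0.0155), a call lost with spike-in scaling (log2 -0.52, adjusted p = 0.193), without the filter (0.0662) and without normal liver 2 or normal liver 3 (up to 0.0585). Whether squamous cells were present, and any part of theirs in the rise of Grhl1, Klf4 and Cdh1, was not tested.

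Pancreatic acinar markers were mostly below background: Cpa1, Pnlip, Cela2a, Cela3b and Ptf1a, 5 of 8, were well above background on no array. Of the 3 tested, Cel rose (1.13, and 0.48 under normexp) and Amy2a5, the brightest, fell (-1.27), with a median of -0.24. The sum was 15.1, 16.7 and 15.1 in normal livers and 6.14, 7.83 and 8.68 in tumors.

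Non-parenchymal markers were lower in tumors in several lists. Of 7 macrophage markers, 5 fell and none rose, with a median of -1.12, and the sum was 126, 100.2 and 172 in normal livers and 84.4, 51.2 and 56.0 in tumors. Clec4f, Vsig4, Cd5l and Csf1r fell by 1.84, 1.27, 1.08 and 0.81 on the log2 scale, and the brightest was Cd5l in normal livers and Csf1r in tumors. Leaving out 1 array gave 2 to 7 macrophage markers lower, and spike-in scaling 3. The other marker called lower was Cd68 (log2 -0.64, SE 0.17, adjusted p = 0.0302), lost with spike-in scaling (0.154), without the filter (0.101) and without normal liver 1, normal liver 3, tumor 2 or tumor 3 (up to 0.0899). Csf1r lost its call with spike-in scaling (adjusted p = 0.0662), without the filter (0.0587) and without tumor 2 (0.0506). Cd5l lost its call with quantile normalization (0.0820), without the filter (0.116) and without normal liver 1, normal liver 3, tumor 2 or tumor 3 (up to 0.120). Of 8 markers of stellate cells and fibroblasts, 5 fell and 1 rose, with a median of -0.81. Des and Pdgfrb were at -0.85 and -0.76 on the log2 scale (-0.33 and -0.48 under normexp), and the call of Pdgfrb was lost with spike-in scaling (adjusted p = 0.108), without the filter (0.0784) and without normal liver 1 or normal liver 2 (up to 0.0777). Lrat, Dcn and Lum fell by 1.83 (0.91 under normexp), 1.64 and 1.41, Col1a1 rose by 1.58, and the sum was 88.3, 87.6 and 104.9 in normal livers and 28.1, 41.0 and 48.5 in tumors, with Dcn the brightest. The part of these cells in the fall of Esrp1, Esrp2 and Klf2 was not tested.

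Of 7 endothelial markers, Stab2 and Clec4g fell (-0.78 and -0.49), none rose, and the median was 0.00. With spike-in scaling the list had 1 marker called higher and 0 lower (Stab2 adjusted p = 0.0935, Clec4g 0.400), and without the filter the call of Stab2 was lost too (0.0589). The sum was 104, 108 and 117 in normal livers and 80.4, 89.0 and 83.5 in tumors, with Clec4g the brightest, and the call of Clec4g was lost without any 1 array but normal liver 1 (adjusted p up to 0.148), under normexp (0.107), with quantile normalization (0.119) and without the filter (0.151), while 2 other Stab2 probes were at 0.02 and 0.09. Neither of 2 tested T and B lymphocyte markers passed, with a median of 0.42. With spike-in scaling or the replicate block 1 marker of this list was called higher, and with 1 array left out 0 or 1. The sum was 8.31, 6.64 and 6.56 in normal livers and 8.53, 7.33 and 6.71 in tumors. Cd3e was the brightest and Cd8a was well above background on no array. None of 3 tested neutrophil markers passed, with a median of 0.66 (0.16 over all 6 without the filter), and the sum was 6.66, 7.58 and 5.14 in normal livers and 17.9, 7.14 and 5.38 in tumors, with S100a9 the brightest and Mpo well above background on no array. Tumor 1 was the only sample with a high neutrophil sum, and it was also the highest of the 6 samples for Tfcp2l1 and Klf4. The part of these cells in those values was not tested.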

How the data were processed

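Total RNA of 3 normal livers and 3 liver tumors was labelled with Cy3 and hybridized to 1-color Agilent mouse expression arrays. The deposited scanner files hold intensity values per spot, made by the authors with Agilent Feature Extraction (version 12.0.3.1 in the submitters' processing notes, 10.7.3.1 in the file headers). Per the methods, the authors scaled signals to the 75th percentile of each array. The deposited value table holds this ratio on a linear scale: its columns have medians of 0.11, 0.11 and 0.09 in normal livers and 0.1, 0.09 and 0.08 in tumors, and 96.5% to 99.2% of its values lay within 0.011 of the ratio computed here. Probe coordinates are those of the array design (mm9). The genome build and annotation behind the design's gene names are not given in the sources used here beyond this.

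Control and outlier spots were left out, processed signals were divided by the 75th percentile of the 62976 spots (123.9 to 183 intensity units), the log2 values of replicate spots were averaged, and limma was run on the 24901 of 55681 probes that passed the background flag in every sample of a group (limma 3.58.1 in R 4.3.3, two-sided, Benjamini-Hochberg). Between 44.7% and 48.9% of spots were well above background, no spot was saturated, and 3 arrays a group limit the precision. A gene stands by its probe with the highest mean. Names were updated through RefSeq accessions for 27235 probes and by synonym for 565, while 24300 kept the name of the array design. A bound ("at least") sets the mean of the bright group against the dimmest detectable signal of the other arrays. Scripts were tested on simulated data.

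The 10 members and the 18 further lists (167 genes, 165 on the array) were chosen with earlier results of these data known: relatives of the members in 4 lists (CP2, Ovol, Elf and Spdef, Klf), other epithelial factors, other splicing regulators, Esrp-spliced genes, junction and polarity genes, mesenchymal transition genes, and markers of 9 cell types. The genes named are all members, from each list the 4 called genes with the largest difference, all genes of lists of up to 5, and the 5 genes most like Grhl1; other genes were named after their values were seen. Alternatives changed the background correction, scaling, filter, test, probe and samples. Ovol3 and Qki matched no probe by symbol. Single values of some list genes are not reported here; the counts, medians and sums of their lists include them.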

Additional observations from a re-analysis of the deposited data

How the results depend on the processing

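The log2 difference of no tested member changed sign under any alternative, but the number of members called did, as did the wider counts. With spike-in scaling, 5053 probes (57.5% of them higher in tumors, against 37.8% of 8239) and 2 members were called, both higher. Without the filter on dim probes, 4674 probes, 1 member (Grhl1) and 30 of 165 genes of the further lists were called, against 47 of 118. An unpaired t-test after Benjamini-Hochberg adjustment called 5261 probes, 2 members and 30 list genes. The methods name a paired t-test and no pairing; paired by replicate number, it called 0 probes, 0 members and 0 list genes after adjustment, against 7419 probes and 2 members at an unadjusted p under 0.05. Leaving out 1 array gave 4954 to 7171 probes (fewest without normal liver 2), 1 to 3 members (1 without normal liver 1 or tumor 1) and 34 to 43 list genes; of 36 called and named list genes, 26 stayed called without each array in turn. The other alternatives, normexp and quantile normalization among them, moved none of these counts by more than 1.5 times. Of the named list genes, Elf2 turned to -0.013, -0.049 and -0.055 without normal liver 1, normal liver 2 and tumor 1 (lowest -0.055 and highest 0.10 with 1 array left out), and Cldn7 to -0.13 as the mean of its probes, which disagree. The cause was not tested.

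With the replicate number as a block, 7021 probes and 3 members were called, without Esrp1 (adjusted p = 0.0653). The deviations of same-numbered samples from their group means correlated at 0.07, 0.18 and 0.05. Normal livers 1 and 2 correlated best with the tumor of the same number, and normal liver 3 with tumor 1 (0.10). With 3 arrays a group, these values cannot decide whether the samples were paired. The numbers were not taken as pairs, since the sources used here name none.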

Other observations

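Probes of 1 gene did not always move together. The brighter Cldn7 probe was higher in all 3 tumors, with a wide spread among them (5.63 ± 4.90, SD, n = 3), while its second probe was at 0.173, 0.185 and 0.172 in normal livers and well above background in no tumor. Stab2 fell at its brightest probe only, since its other 2 probes had overlapping groups. Of 11 named list genes with more than 1 tested probe, the other probes had the sign of the representing probe in 9, the exceptions being Cldn7 and Stab2.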
